A study of Mus musculus with 6 samples.

Results

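The insulin-like growth factor (IGF) family was examined in mouse uterus as 10 genes: the ligands Igf1 and Igf2, the receptors Igf1r and Igf2r, and the binding protein genes Igfbp2, Igfbp3, Igfbp4, Igfbp5, Igfbp6 and Igfbp7. The members were chosen by gene family with differences between the genotypes already known from these libraries, so their genotype differences are given as descriptions. Where members are counted among the genes called in the fit of all genes, the count supports nothing. All 10 were found by symbol among the 20637 genes listed, and all 10 passed the filter on low values that left 12640 genes. Poly(A) RNA of the whole uterus of female mice was sequenced on postnatal day 21 in 3 libraries labelled Nat10 f/f, called controls here, and 3 labelled Nat10 d/d, which the series describes as Nat10-deleted. Nat10 encodes the enzyme that acetylates cytidines in RNA. The way the deletion was made, the deleted exons, the cells that lost the gene, the strain and whether each library came from 1 animal are not given in the sources used here. P-values therefore measure only the spread between these libraries.

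IGF1 and IGF2 are secreted growth factors that signal through the tyrosine kinase receptor IGF1R. IGF2R, also known as the cation-independent mannose 6-phosphate receptor, takes up IGF2 and delivers it to lysosomes. The binding proteins hold the ligands outside the cell, which can block them, prolong their life or present them to the receptor, and proteases release the ligands again. In the uterus, Igf1 is known as an oestrogen-induced gene of the stroma that acts on the neighbouring epithelium.

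The labels and libraries were checked once for all results. Nat10 was listed at 13.2, 16.4 and 9.95 FPKM (fragments per kilobase of transcript, scaled to library size; the unit is inferred) in controls and at 5.57, 5.23 and 5.53 in deleted uteri. Summed values ranged from 500764 to 549263 per library, and the depth estimated from the lowest values differed by at most 1.25 times; total read counts are unknown, so no counting error can be given. The marker lists of stroma, epithelium, smooth muscle and endothelium each summed to 220.6 FPKM or more in every library. Nat10 d/d replicate 2 stood apart: the summed level of 6 proliferation genes was 136.6 FPKM there, against 13.7 and 6.95 in the other deleted libraries and 13.4 to 52.9 in controls. For members whose difference moved by over 1.5 times without this library, that value is given too.

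The upstream sequences of 5 binding protein genes are shown because their levels fell into different patterns across the deleted libraries. Igfbp2, Igfbp4, Igfbp5 and Igfbp7 were lower in Nat10 d/d replicates 1 and 3 than in replicate 2, while Igfbp3 was lowest in replicate 2. Igfbp2 and Igfbp3 were below every control in all deleted libraries. Each line gives the 250 bases before the RefSeq transcription start on the gene's strand (GRCm38.p6, the build also called mm10). RefSeq lists 2 starts for Igfbp2 and 4 for Igf2, and for each the most upstream on the gene's strand was used; motifs were not counted at the others. Capitals mark matches on either strand to any of 4 short motifs. The TATA box was searched as TATAAA and the GC box, which binds Sp family factors, as GGGCGG. The E-box, which binds basic helix-loop-helix factors, was searched as CACGTG, and the last motif was the CCAAT box. The matches do not overlap each other.
Igfbp4: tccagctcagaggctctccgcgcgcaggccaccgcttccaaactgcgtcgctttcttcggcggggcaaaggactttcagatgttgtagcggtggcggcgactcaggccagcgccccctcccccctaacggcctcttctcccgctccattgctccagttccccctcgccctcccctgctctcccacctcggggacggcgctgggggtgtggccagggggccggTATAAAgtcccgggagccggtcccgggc
Igfbp5: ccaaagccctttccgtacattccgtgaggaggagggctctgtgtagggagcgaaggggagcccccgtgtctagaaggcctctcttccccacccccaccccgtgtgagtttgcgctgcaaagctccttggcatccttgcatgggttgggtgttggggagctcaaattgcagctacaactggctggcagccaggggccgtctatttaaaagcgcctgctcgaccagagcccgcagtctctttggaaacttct
Igfbp7: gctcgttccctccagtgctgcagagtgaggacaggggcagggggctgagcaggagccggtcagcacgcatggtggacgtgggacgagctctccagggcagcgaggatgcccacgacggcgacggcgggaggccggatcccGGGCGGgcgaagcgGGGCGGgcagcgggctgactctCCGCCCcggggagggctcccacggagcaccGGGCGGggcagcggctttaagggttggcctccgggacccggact
Igfbp3: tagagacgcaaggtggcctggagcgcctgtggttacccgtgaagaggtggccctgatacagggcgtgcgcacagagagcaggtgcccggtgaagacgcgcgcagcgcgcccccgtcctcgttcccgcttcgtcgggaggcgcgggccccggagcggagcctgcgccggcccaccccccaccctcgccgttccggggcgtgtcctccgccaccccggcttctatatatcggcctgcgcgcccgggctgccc
Igfbp2: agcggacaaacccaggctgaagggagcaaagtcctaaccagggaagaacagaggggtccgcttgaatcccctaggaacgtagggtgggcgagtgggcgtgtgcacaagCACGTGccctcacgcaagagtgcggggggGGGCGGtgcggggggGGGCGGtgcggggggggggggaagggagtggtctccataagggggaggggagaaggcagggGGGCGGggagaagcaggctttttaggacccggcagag

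The 5 windows lie at chr11:99040994-99041243 (plus strand, Igfbp4), chr1:72874866-72875115 (minus strand, Igfbp5), chr5:77408046-77408295 (minus strand, Igfbp7), chr11:7213924-7214173 (minus strand, Igfbp3) and chr1:72824230-72824479 (plus strand, Igfbp2). Igfbp4, Igfbp5, Igfbp7 and Igfbp2 were all highest in Nat10 d/d replicate 2 among the deleted libraries, and no motif searched was in all 4 windows. In GENCODE M21, 19 bases of the Igfbp5 window lie in an annotated exon and none of the other windows shown do. Igfbp4 had 1 TATA box, which begins 28 bases before the start. Igfbp7 had 4 GC boxes, and Igfbp5 had none of the motifs searched. Igfbp3 also had none, while Igfbp2 had 3 GC boxes and 1 E-box. Among 32851 mouse promoter windows of the same length, 12.4% held the TATA box, 32.7% the GC box, 33.9% the CCAAT box and 6.02% the E-box. The palindromic oestrogen response element was in 0.0639% of windows and in none of the 10 members' windows, 1 per gene. GC content was 74% for Igfbp7, 73.2% for Igfbp3, 69.2% for Igfbp4, 67.2% for Igfbp2 and 58.8% for Igfbp5. A match describes the letters only, and no match says only that these letters are absent from the window.

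The family spans a wide range of levels in the control uterus, and FPKM values, being per length, allow that comparison. Igfbp7 had the highest level, 1293 ± 129 FPKM (SD, n = 3), and ranked 60th of the 12640 genes. Igfbp3 at 575 ± 114 and Igfbp4 at 519 ± 15.1 came next, and their order was not the same in every control. Igfbp5 (194 ± 13.2) and Igfbp6 (191 ± 24.2) likewise did not differ beyond their spread. The ligands and receptors were lower: Igf1 at 45.5 ± 12.1, Igf2 at 35.3 ± 5.33, Igf2r at 34.3 ± 4.62 and Igf1r at 28.4 ± 0.372. Of these, Igf1, Igf2 and Igf2r each lay above Igf1r in every control library, and overlapped each other. Igfbp2 was the lowest member at 6.77 ± 1.02 FPKM, with 28.4% of tested genes below it.

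Igfbp2 (chr1:72824503-72852474, plus strand) and Igfbp5 (chr1:72857932-72874884, minus strand) face each other tail to tail with 5457 bases between them in GENCODE M21. Their control means were 6.77 and 194 FPKM. Igfbp3 (chr11:7206086-7213923, minus strand) lies 3539 bases from Igfbp1 (chr11:7197782-7202546, plus strand), a binding protein gene best known from liver and decidua that is not among the 10. Igfbp1 was listed at 0 in 5 of the 6 libraries and at 0.165 FPKM in Nat10 d/d replicate 3, beside a lowest Igfbp3 value of 235.2.

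The ligand genes differed little between genotypes. Igf1 (chr10:87858265-87937042, plus strand) was listed at 51.7, 53.3 and 31.6 FPKM in control replicates 1, 2 and 3 and at 42.1, 45.8 and 37.1 in the deleted libraries. All 3 deleted values lay inside the control range, which control replicate 3 widens downwards. The log2 difference, deleted minus control on log2(FPKM + 1), was -0.09 (SE 0.21), and leaving out 1 library gave -0.33 (control replicate 3) to 0.04 (control replicate 2). It was 0.02 without control replicate 1 and -0.16 without Nat10 d/d replicate 2. Igf2 (chr7:142650766-142666816, minus strand), an imprinted gene, was listed at 40.9, 30.3 and 34.7 FPKM in controls and at 39.9, 30.5 and 41.6 in deleted uteri. The groups overlapped, with a log2 difference of 0.08 (SE 0.16) that was 0.21 without Nat10 d/d replicate 2. It changed sign without control replicate 2 (-0.025) and without Nat10 d/d replicate 3 (-0.005). Summed over both ligands, levels were 66.3 to 92.6 FPKM in controls and 76.3 to 82.0 in deleted uteri. Igf2 shares 16048 bases with the same-strand gene model Gm49394, and antisense transcripts overlap Igf1, Igf2, Igf2r and Igfbp7 in the annotation. Strand setting is not given in the sources used here, so reads from such pairs cannot be told apart.

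The 2 receptors behaved differently from each other. Igf1r (chr7:67952827-68233668, plus strand) lay within a narrow band in the 3 controls, at 28.1, 28.9 and 28.4 FPKM. In the deleted libraries it was 32.9, 19.03 and 39.7, so that replicate 2 lay below every control and replicates 1 and 3 above every control. The group means, 28.4 ± 0.372 and 30.6 ± 10.6 FPKM (SD, n = 3), hide this spread. The log2 difference of 0.04 (SE 0.24) was -0.001 after quantile normalization, 0.34 without Nat10 d/d replicate 2, -0.04 without replicate 1 and -0.18 without replicate 3. For Igf1r the SD of log2 values in the deleted group exceeded that in the control group 29.2 times, a ratio that rests on 3 close control values. The median of this ratio was 1.73 over all 12640 genes and 1.72 over the 10 members, with Igf1 at 0.358. Igf2r (chr17:12682406-12769664, minus strand) was listed at 32.2, 31.1 and 39.6 FPKM in controls and at 23.4, 26.3 and 32.3 in deleted uteri. Replicates 1 and 2 lay below the controls and replicate 3 inside their range, for a log2 difference of -0.32 (SE 0.15).

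**Figure D1:**
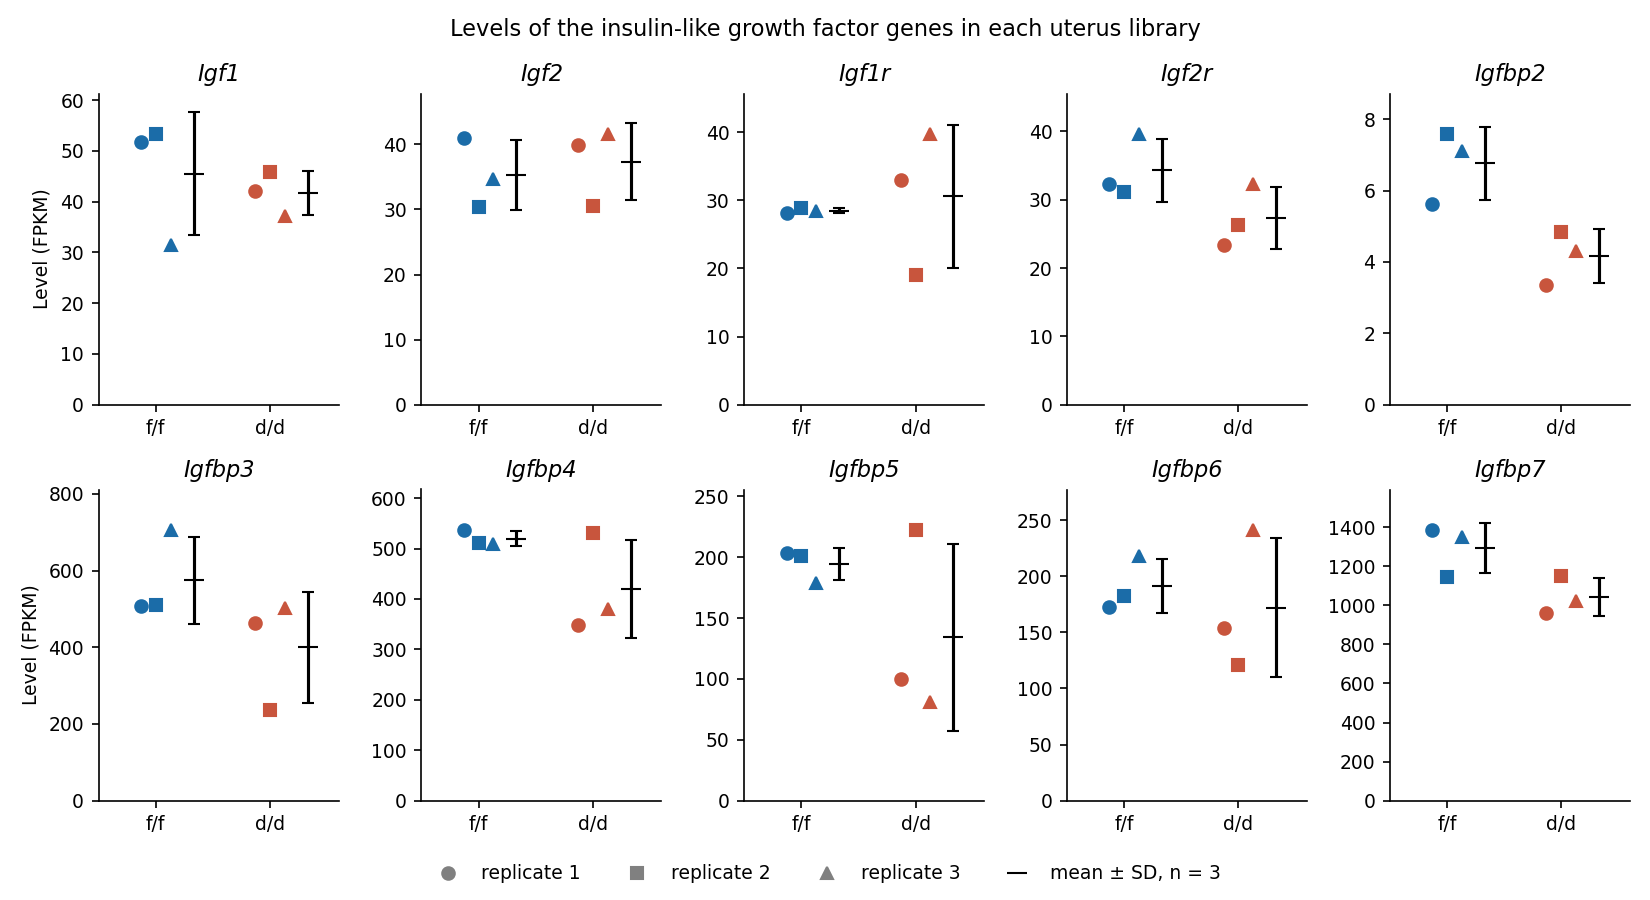
Levels (FPKM, linear axes from 0) of the 10 genes in each library, with marker shapes for replicates 1 to 3 of Nat10 f/f and Nat10 d/d, and bars for the group mean ± SD (n = 3). Igf1r controls sit between 28.1 and 28.9 while deleted libraries spread from 19.03 to 39.7, and only Igfbp2 and Igfbp3 show groups that do not overlap.

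All 6 binding protein genes had a lower mean in deleted than in control uteri, at 61.6% to 90% of the control mean. Their median log2 difference was -0.45, and that of all 10 members was -0.32, beside 0.03 over all genes tested. Of the 12640 genes, 43.4% had a negative difference. In 2 of the 6, Igfbp2 and Igfbp3, every deleted library lay below every control, where 4.6% of all genes tested had such a separation downwards. No member was separated upwards, against 6.12% of all genes. Since the members were chosen with this contrast known, nothing is read from these shares.

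Igfbp2, which encodes a carrier of both ligands, was lower in all 3 deleted libraries. It was listed at 5.62, 7.58 and 7.10 FPKM in controls and at 3.36, 4.84 and 4.32 in Nat10 d/d replicates 1, 2 and 3. Every deleted library was below every control, and the deleted mean was 61.6% of the control mean. The log2 difference was -0.59 (SE 0.16) and ranged from -0.70 to -0.47 when 1 library was left out. At these low levels the added 1 understates the change, and with a pseudocount of 0.1 the log2 difference was -0.69.

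Igfbp3, which encodes the main carrier of IGFs in blood, was lowest in a single deleted library. It was listed at 506.4, 511.4 and 705.6 FPKM in controls and at 462.6, 235.2 and 502.9 in deleted uteri. Replicate 2 was at 40.9% of the control mean. Replicates 1 and 3 were at 80.5% and 87.5%, and replicate 3 lay just under the lowest control, 502.9 against 506.4. The log2 difference of -0.58 (SE 0.30) was -0.23 without Nat10 d/d replicate 2.

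Igfbp5, whose product binds matrix as well as IGFs, showed the opposite order. It was listed at 203.1, 200.8 and 179.1 FPKM in controls and at 99.6, 222.3 and 80.8 in deleted uteri. Replicates 1 and 3 were at 51.2% and 41.6% of the control mean, while replicate 2, at 114%, exceeded every control. The log2 difference was -0.67 (SE 0.34), -1.10 without Nat10 d/d replicate 2 and -0.38 without replicate 3. The ratio of Igfbp3 to Igfbp5 was 2.49 to 3.94 in controls, and 4.65, 1.06 and 6.23 in deleted replicates 1, 2 and 3, so no deleted library fell inside the control range.

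Igfbp4 and Igfbp7, like Igfbp5, were highest in replicate 2 among the deleted libraries, but lowest in replicate 1 where Igfbp5 was lowest in replicate 3. Igfbp4, whose product mainly restrains IGF action, was listed at 536.6, 511.7 and 509.4 FPKM in controls and at 348.7, 530.6 and 380.1 in deleted uteri. Replicates 1 and 3 were at 67.2% and 73.2% of the control mean and replicate 2 lay inside the control range, for a log2 difference of -0.33 (SE 0.17) that was -0.51 without replicate 2 and -0.21 without replicate 1. Igfbp7, an abundant member whose product binds IGFs only weakly, was listed at 1385, 1146 and 1349 FPKM in controls and at 958.3, 1148 and 1021 in deleted uteri. Replicates 1 and 3 were below every control and replicate 2 lay just above the lowest control. The log2 difference was -0.31 (SE 0.14) and lay between -0.40 and -0.25 when any 1 library was left out. Its gene overlaps the end of Polr2b on the other strand by 85 bases, and Polr2b was listed at only 25.4 to 29.6 FPKM.

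Igfbp6, which encodes a carrier that prefers IGF2, followed Igfbp3 and Igf1r in being lowest in Nat10 d/d replicate 2. It was listed at 172.4, 182.5 and 218.5 FPKM in controls and at 153.7, 121.2 and 241.2 in deleted uteri. Replicates 1 and 2 lay below the controls and replicate 3 above them. The log2 difference was -0.20 (SE 0.24), 0.02 without replicate 2, -0.48 without replicate 3 and -0.10 without control replicate 3.

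**Figure D2:**
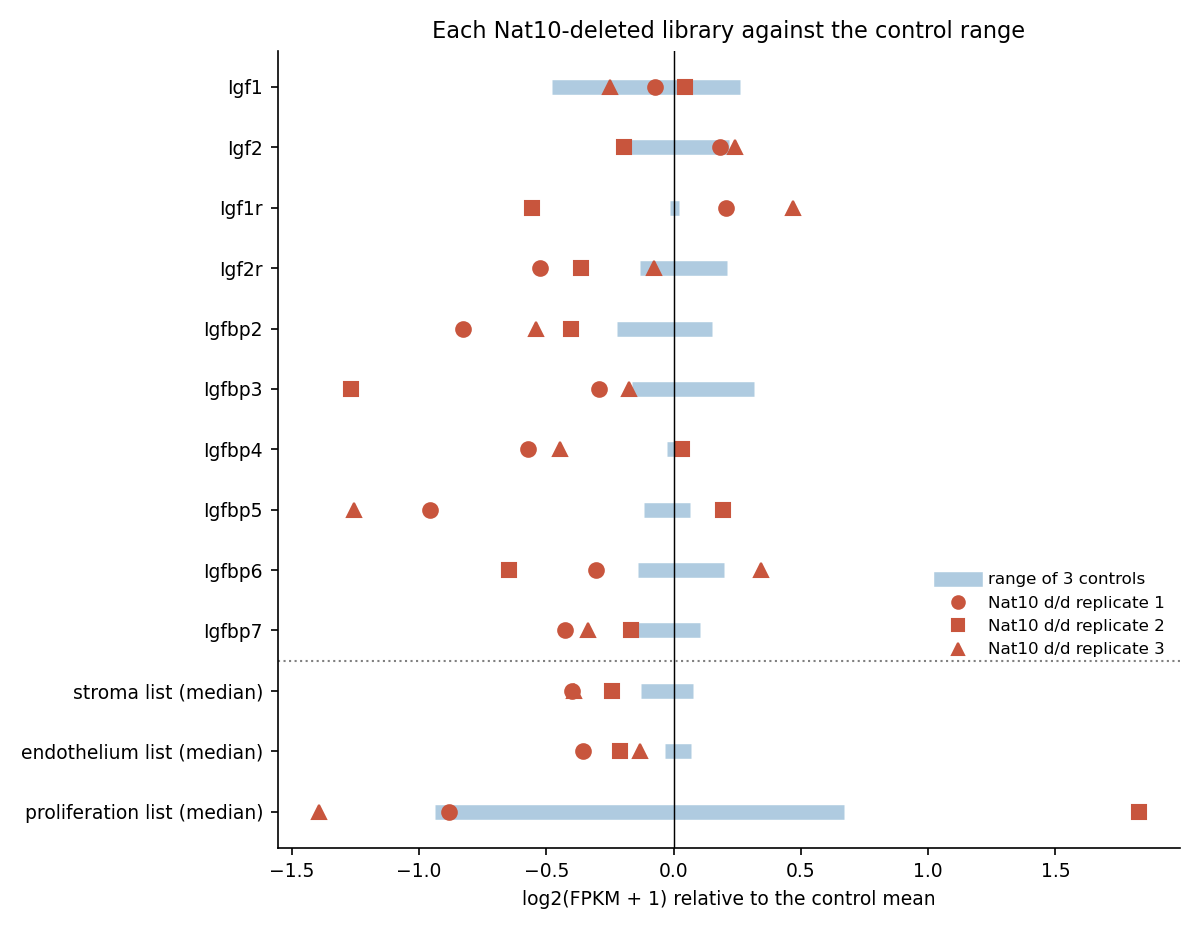
Log2(FPKM + 1) relative to the control mean for each member in Nat10 d/d replicates 1, 2 and 3 (red shapes), with the range of the 3 controls as a blue band; the lower rows give the median over 3 marker lists. Replicate 2 is the lowest deleted library for Igf2, Igf1r, Igfbp3 and Igfbp6 and the highest for Igf1, Igfbp2, Igfbp4, Igfbp5 and Igfbp7, and its proliferation median is 1.83.

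Counted by library, 7 members lay below every control in Nat10 d/d replicate 1, 5 in replicate 2 and 5 in replicate 3, against 31.9%, 33.1% and 25.5% of all genes tested. For the binding proteins alone the counts were 6, 3 and 5 of 6. Above every control lay 1, 1 and 3 members, against 34.2%, 38.4% and 34.0% of all genes tested. The choice of members used this contrast, so nothing is read from these counts. Marker lists are given beside these counts, and none of their genes was called by limma. All 12 stroma markers had a lower mean log2 level. Their median log2 level, set against the average of the controls, came to -0.40, -0.24 and -0.39 in deleted replicates 1, 2 and 3 and to -0.13 to 0.08 in controls. Their summed level was 3654, 5147 and 3519 FPKM, against 4434 to 5120 in controls. The stroma markers did not share 1 order over the deleted libraries. The collagen genes had the order of Igfbp5: Col1a1 was 394, 984 and 361 FPKM in the deleted libraries and 677 to 765 in controls. Pdgfra, Pdgfrb, Dcn, Hoxa11, Mfap5 and Nr2f2 were instead lowest in replicate 2. Dcn was 1160, 645.7 and 1197 FPKM in the deleted libraries and 1033 to 1115 in controls. All 7 endothelium markers also had a lower mean log2 level, with summed levels of 220.6 to 244.8 FPKM against 256.7 to 287. Smooth muscle sums were 3802 to 4854 against 4084 to 4696 FPKM, and 3 of the 7 markers had a lower mean log2 level. Epithelium sums were 814 to 1122 against 856 to 927, and 4 of the 10 markers had a lower one. Over all genes tested, 43.4% had a negative log2 difference. Of the 4 mesothelium markers 3 had a lower mean log2 level. Their median was -0.31, -0.33 and -0.57 in deleted replicates 1, 2 and 3 and -0.25 to 0.12 in controls, while their sums overlapped at 55.65 to 66.05 and 56.84 to 71.13 FPKM. Of the 5 leukocyte markers 4 had a lower mean log2 level, with sums of 69.2 to 95.3 FPKM against 73.1 to 103. The part of these markers in the binding protein differences was not tested, and in whole tissue fewer cells of a type and less RNA per cell cannot be told apart. Of the 3 liver markers, Apoa1 was listed at 0 in all 6 libraries, and the list summed to at most 0.709 FPKM. The 5 adipose markers summed to 34 FPKM in control replicate 1 and to 0.146 to 10.9 in the other libraries, and the 4 erythroid markers to 632 to 4137 in controls and 547 to 1417 in deleted uteri.

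Added together, the 6 binding protein genes came to 2809, 2560 and 2969 FPKM in controls and to 2026, 2262 and 2230 in Nat10 d/d replicates 1, 2 and 3. The groups did not overlap in this sum, which Igfbp7, Igfbp3 and Igfbp4 dominate. All 6 genes had a lower mean in deleted uteri and were chosen with this contrast known, so nothing is read from this separation. Igfbp3 held 18% to 23.8% of the sum in controls, and 22.8%, 10.4% and 22.5% in the deleted libraries. Igfbp5 held 6.03% to 7.84% in controls and 4.91%, 9.83% and 3.62% in deleted replicates 1, 2 and 3. The share of Igfbp7 was 44.8% to 49.3% in controls and 45.8% to 50.8% in deleted uteri.

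**Figure D3:**
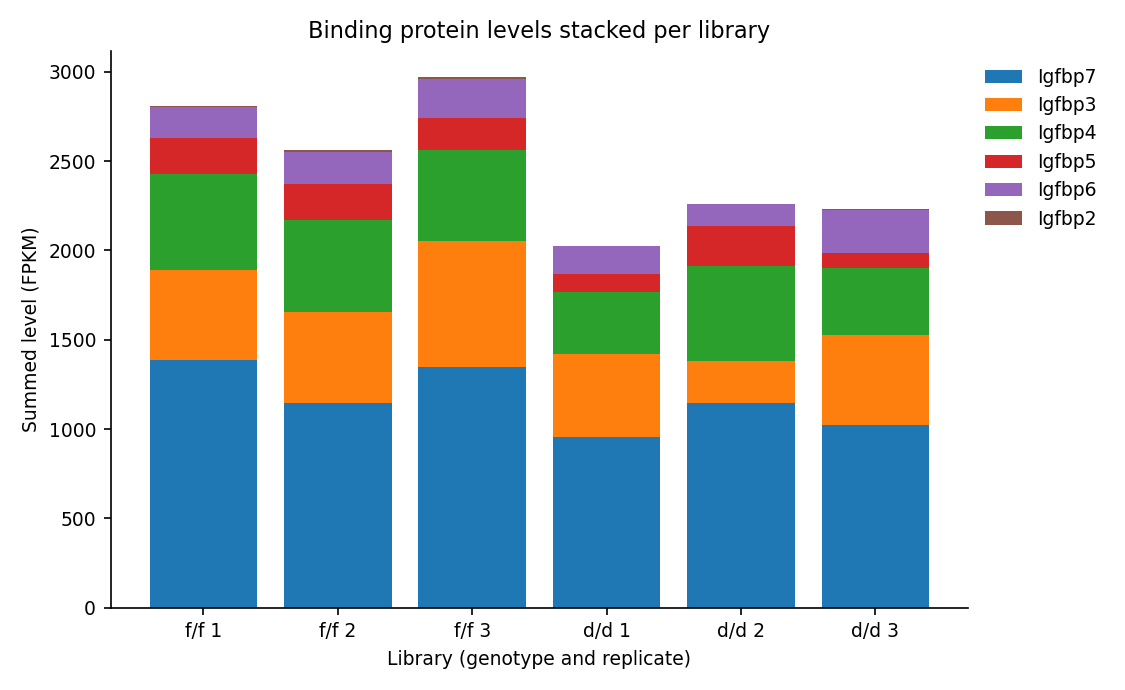
Levels (FPKM) of the 6 binding protein genes stacked for each library, 3 Nat10 f/f and 3 Nat10 d/d, on an axis from 0. The stacks reach 2560 to 2969 in controls and 2026 to 2262 in deleted uteri, with the smallest Igfbp3 segment and the largest Igfbp5 segment in Nat10 d/d replicate 2.

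Over all genes, limma called 0 of 12640 at an adjusted p of 0.05 (0%), so no member was called. An unadjusted limma p under 0.05 was found for 630 genes (4.98%). Nat10 itself, at 41.4% of its control mean, was not called either (limma adjusted p 0.669). A gene left uncalled by this fit is therefore not shown to be unchanged. Without Nat10 d/d replicate 2, 12 genes (0.0949%) were called and Igfbp5 was 1 of them. With array quality weights, which give less weight to libraries that deviate from their group, 316 genes (2.5%) were called, among them Igfbp2, Igfbp4 and Igfbp5. Because the choice of members used this contrast, these counts describe the members and support nothing.

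**Figure D4:**
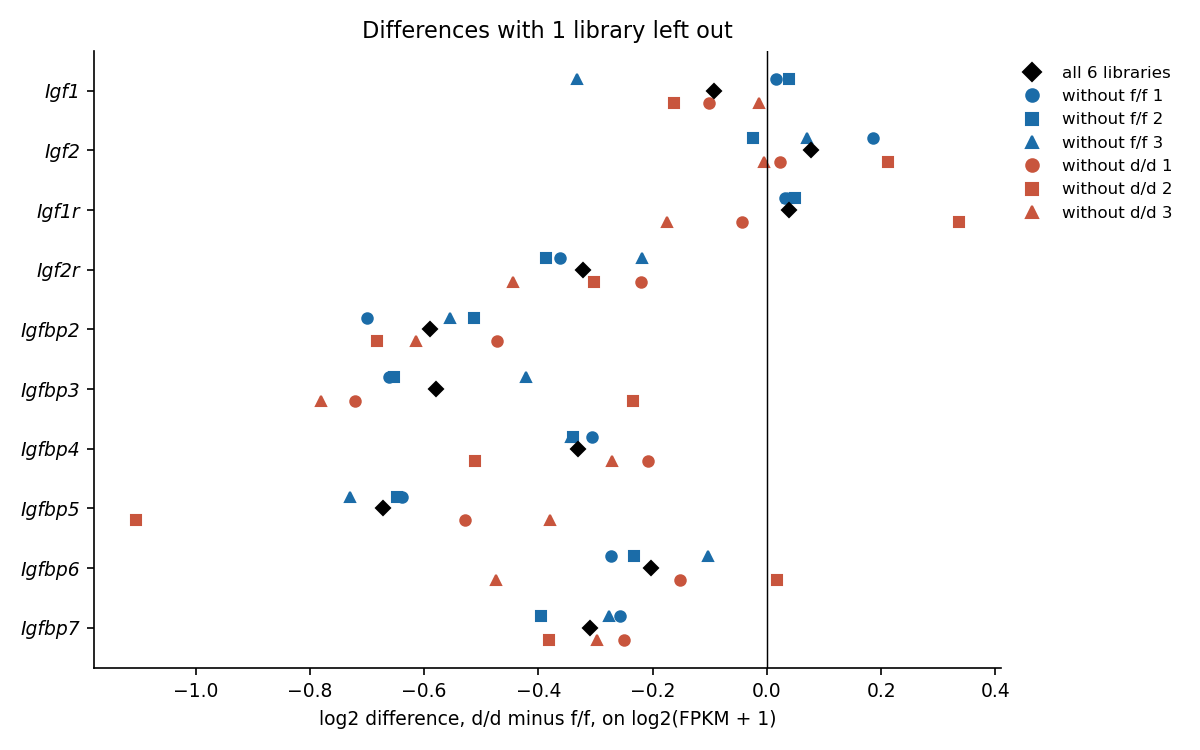
Log2 difference (deleted minus control, log2(FPKM + 1)) of each member with all 6 libraries (black) and with each control (blue) or deleted (red) library left out in turn. Igf2r, Igfbp2, Igfbp3, Igfbp4, Igfbp5 and Igfbp7 lie below 0 in all 6 cases, while Igf1, Igf2, Igf1r and Igfbp6 cross 0 in at least 1.

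The rest of the pathway was followed in 70 listed genes outside the family, of which 63 passed the filter. None of the 63 was called by limma, the smallest adjusted p being 0.838; at an unadjusted p under 0.05, 1 was higher and 2 were lower, a total of 3 of 63 beside 4.98% of all genes. That total was 9 without Nat10 d/d replicate 3, where 1403 of the 12640 genes had such a p, and 17 with array quality weights, where 3730 had. Groups did not overlap for 3 lower and 4 higher genes of the 63, beside 4.6% and 6.12% of all genes. The median log2 difference was -0.04, with 27 genes above 0 and 36 below.

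Both of the lower ones were in the list of binding protein proteases, carriers and other genes of the IGF system, which also holds the insulin receptor family and the RNA-binding Igf2bp genes. Htra1, which encodes a secreted serine protease able to cleave binding proteins, was listed at 85.1, 76.2 and 99.2 FPKM in controls and at 57.6, 57.4 and 60.0 in deleted uteri. All deleted libraries lay below all controls and close to each other, for a log2 difference of -0.56 (SE 0.12; limma unadjusted p 0.00226, adjusted p 0.838, and adjusted p 0.0386 with array quality weights). Stc2, whose product inhibits the binding protein protease PAPP-A, was 10.6, 9.62 and 8.09 FPKM in controls and 6.99, 5.44 and 7.56 in deleted uteri, again without overlap. Its log2 difference was -0.45 (SE 0.15; limma adjusted p 0.922). The related Stc1 had a log2 difference of 0.25 (SE 0.16) with overlapping groups, 0.41 without control replicate 2 and 0.17 without control replicate 3. Pappa itself, the protease that cleaves IGFBP4, was 8.93 to 9.58 FPKM in controls and 8.35, 4.36 and 12.0 in deleted replicates 1, 2 and 3, the order seen for Igf1r and Igfbp6; it is named here after its values were seen. Of the 13 genes in this list, 7 were tested, with 6 log2 differences below 0 and 1 above.

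In the growth hormone arm, which drives Igf1 transcription in liver and some other tissues, 5 of 6 genes had a log2 difference below 0 and none had an unadjusted p under 0.05. Stat5a was lower without overlap (log2 difference -0.20, SE 0.12), Stat5b differed by -0.15 (-0.27 without Nat10 d/d replicate 3 to -0.07 without control replicate 1, and -0.09 without Nat10 d/d replicate 2) and the growth hormone receptor gene Ghr by -0.16. The 39 genes of signalling below the receptor had a median log2 difference of 0.00, with 21 above 0 and 18 below. The one with an unadjusted p under 0.05 was Rps6kb2, a ribosomal S6 kinase gene, at a log2 difference of 0.35 (SE 0.14; limma adjusted p 0.922). Rheb, the small GTPase that activates mTOR, was higher without overlap at 65.1 to 77.4 FPKM in controls and 79.0 to 96.9 in deleted uteri (log2 difference 0.27, SE 0.13), and Rps6kb1 differed by 0.16. The adaptor gene Irs1 had means of 24.9 ± 0.977 and 25.0 ± 1.27 FPKM (SD, n = 3). Irs2, a second adaptor gene, was 6.67 to 9.59 FPKM in controls and 6.31, 3.47 and 14.1 in deleted libraries. Insr, the insulin receptor gene, was 22.0 to 24.2 in controls and 23.8, 15.4 and 26.3 in deleted libraries, and like Igf1r was lowest in replicate 2.

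FoxO transcription factors are switched off when IGF1R signals through AKT, so transcripts known to respond to them were included. Of 11 tested, 4 had a log2 difference above 0 and 7 below, and none had an unadjusted p under 0.05. Sesn3 differed by -0.50 (SE 0.27), with Nat10 d/d replicate 1 at 10.1 FPKM against 20.7 and 21.4 in the other deleted libraries and 20.8 to 26.2 in controls. Without replicate 1 the difference was -0.17. Txnip was 663.8 to 894 FPKM in controls and 633.5, 340.9 and 1029 in deleted libraries, and Klf15 was 11.4 to 20.5 in controls and 10.2, 5.37 and 26.1. Both were lowest in replicate 2 and highest in replicate 3, as Igf1r was. With all libraries the log2 differences of Txnip, Klf15, Irs2, Insr and Ghr were -0.30, -0.39, -0.17, -0.09 and -0.16. Without replicate 2 the sign of each reversed, to 0.12, 0.10, 0.24, 0.13 and 0.05.

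**Figure D5:**
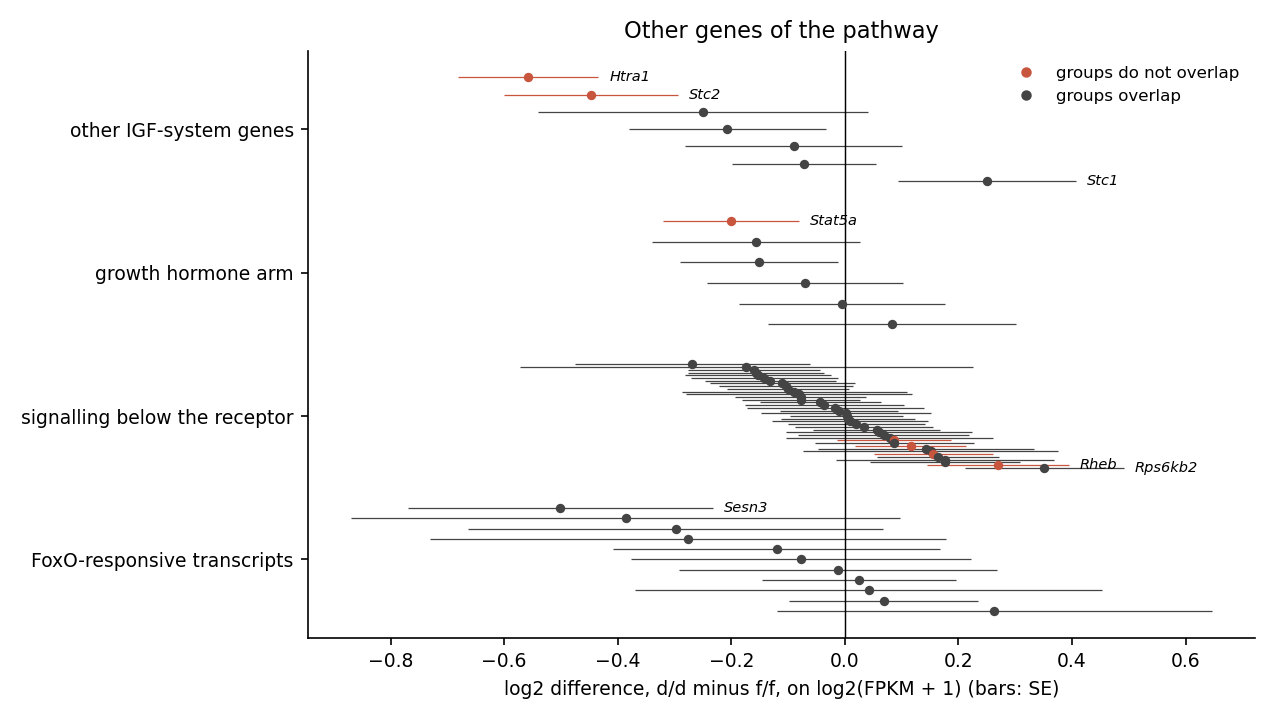
Log2 difference (deleted minus control, log2(FPKM + 1)) of the 63 tested pathway genes outside the family in 4 groups, with bars for the SE and red points where the groups do not overlap. Htra1 (-0.56) and Stc2 (-0.45) are the lowest of the other IGF-system genes, and the 39 signalling genes centre on 0.

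For each member, the genes with the most similar course over the 6 libraries were sought among 9997 genes with a mean of at least 5 FPKM, by Pearson's r of log2(FPKM + 1). The r values are maxima over many genes and carry no test; over all 9997 genes the median of the highest r with any other gene was 0.993. Igf1r was closest to Mertk (r = 0.996) and Tox3 (0.995), and Igf2r to Adgrf5 (0.994) and Erg (0.991). Igfbp3 was closest to Syne2 (0.998) and Axl (0.995), Igfbp6 to Hs1bp3 (0.995) and Pltp (0.993), and Igfbp4 to Hcfc1 (0.995) and Raph1 (0.994). For Igfbp5 the nearest were Ptprs (0.991) and Tm9sf4 (0.989), and for Igfbp7 Ticam1 (0.990) and Serpinf1 (0.990). Igfbp2 (Tars2, 0.984; Jak1, 0.980), Igf2 (Bin1, 0.986; Usp22, 0.975) and Igf1 (Dync1i2, 0.974; Kcng1, 0.963) had lower r values. The highest r of Igfbp5 and of Igfbp7 was also under that median.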

How the data were processed

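The deposited tables hold 1 value per gene and library, taken as FPKM: the authors' headers name no unit, and the deposited values are not whole and their sums differ between libraries, while Cufflinks reports FPKM. HISAT2 2.2.1, Cufflinks 2.2.1 and mm10 are named in the submitters' processing notes, without their settings; annotation and strand setting are not given in the sources used here. Groups and replicate numbers came from the sample titles.

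Values were analysed as log2(FPKM + 1), for genes at 1 or more in at least 3 libraries. The genotype contrast was fitted in R 4.3.3 using limma 3.58.1, group being the only term and eBayes run with a trend, with Benjamini-Hochberg adjustment over all 12640 genes and a threshold of 0.05. The fit was run on simulated data with independent noise in each gene and differences larger than those of the members. That run checked the code only, and no result here rests on it. Coordinates come from GENCODE M21 (mm10) and sequences from RefSeq (GRCm38.p6). Python 3.11.15 and matplotlib 3.10.9 drew the figures.

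The members, the pathway and marker lists and the alternatives were chosen with earlier results of these data known. Pathway genes named are the 3 with the smallest p in each of its 4 groups, plus Igfbp1, Insr, Irs1 and Irs2; Pappa was added after its values were seen; for each member, the 2 most alike genes by r. H19, chosen for the pathway list beside its 70 genes, was not analysed here.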

Additional observations from a re-analysis of the deposited data

How the results depend on the processing

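The 14 alternatives were another pseudocount, 2 filters, quantile and median scaling, a replicate block, no trend, array quality weights and leaving out each library. The median log2 difference of the 10 members was -0.32, and leaving out 1 library gave -0.36 to -0.21. Among the 8 settings with all libraries, Igf1r was -0.001 after quantile normalization, and no other member changed sign. With array quality weights Igf1r was 0.196, Igf2 0.131, Igfbp3 -0.305 and Igfbp4 -0.538. The main fit gave 0.039, 0.077, -0.579 and -0.33 for these genes. The count of genes called was 0, with a range of 0 to 12 when 1 library was left out (12 without Nat10 d/d replicate 2) and 316 with array quality weights. With those weights 2 pathway genes were called, Htra1 (-0.57, adjusted p 0.0386 from limma) and Sesn3 (-1.03, 0.0466); unweighted and without Nat10 d/d replicate 1, Sesn3 was -0.17. Uncalled pathway genes that changed sign were Irs1 (-0.026 after quantile normalization, -0.025 after median centring) and, with array quality weights, Ghr (0.022) and Insr (0.052). With 1 library left out, values ran from -0.269 to 0.053 for Ghr, -0.236 to 0.131 for Insr, -0.029 to 0.041 for Irs1, -0.643 to 0.238 for Irs2, -0.68 to 0.115 for Txnip and -0.947 to 0.096 for Klf15; the highest of each was without Nat10 d/d replicate 2. The cause was not tested.

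Same-numbered libraries of the groups deviated from their group means with correlations of -0.34, -0.03 and 0.10 across genes, so the numbers were not taken as pairs; with the replicate block 0 genes and 0 pathway genes were called and the median member difference was -0.32. Absolute depth is unknown, which limits statements on Igfbp1 and other genes near 0.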
